A study of Arabidopsis thaliana with 12 samples.

Results

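The enzymes that attach ATG8 and ATG12 to their targets in autophagy, and the cargo receptor NBR1, were followed through 12 RNA-seq libraries of Arabidopsis thaliana shoots. The group holds 10 genes, chosen by name: ATG3 (AT5G61500), ATG4A (AT2G44140), ATG4B (AT3G59950), ATG5 (AT5G17290), ATG7 (AT5G45900), ATG10 (AT3G07525), ATG12A (AT1G54210), ATG12B (AT3G13970), ATG16 (AT5G50230) and NBR1 (AT4G24690). The choice was made with earlier results of these data known. These members are 10 of the 33602 genes listed in each library, and all 10 passed the low-count filter that left 17933 genes for testing. Wild-type Col-0 seedlings, 4 days past germination and raised in constant light on agar plates, were all moved to new plates for 8 h. The plates held 2 µM AZD8055, 20 µM KU63794 or 10 µM TORIN1, which are inhibitors of the TOR kinase, or the solvent DMSO alone (mock). Each of the 4 groups had 3 libraries of polyadenylated RNA from about 30 mg of shoot, so each library pooled tissue of seedlings whose number the labels do not give. The treatment text spells KU63794 with its last digits in another order than the library titles do, and the spelling of the titles is kept here. Nothing in the labels tells separate cultures from repeat libraries within a group, and p-values therefore cover only the spread among these libraries, which may be technical.

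Autophagy delivers cytoplasm to the vacuole inside a double membrane, and TOR, the kinase that couples nutrients to growth, is known to hold it back. The growing membrane is decorated with ATG8, a ubiquitin-like protein. ATG4 proteases trim ATG8, the E1-type enzyme ATG7 activates it, and the E2-type enzyme ATG3 passes it to the lipid phosphatidylethanolamine. ATG12, another ubiquitin-like protein, is activated by the same ATG7, carried by the E2-type enzyme ATG10 and joined to ATG5. The ATG12-ATG5 conjugate binds ATG16 and acts as the ligase for the lipid step. NBR1 binds ubiquitinated cargo and ATG8 together, and is itself degraded in the vacuole with that cargo.

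Library totals ran from 7706957 to 14696645 counts. Levels are given in CPM, counts scaled to the same library total after TMM adjustment. In these libraries a count of 0 allows up to 0.205 to 0.391 CPM, taking 3 counts per library as the limit and covering counting error only, and every member lay above this in every library. The 5 shoot markers fixed for the check (RBCS1A, LHCB1.1, CA1, RCA and PSBO1) summed to between 39013 and 62924 CPM in every library. Single markers were less even. LHCB1.1 was at 244 to 306 CPM in mock and 126 to 170 CPM with TORIN1. RBCS1A was at 24880 to 26270 CPM in mock and 21308 to 21529 CPM with KU63794. CA1 went the other way, from 8416 to 9330 CPM in mock and 9386 to 13490 CPM with TORIN1. The 5 root markers (PIN2, EXPA7, COBL9, RHD6 and PRP3) summed to 8.08 to 19.3 CPM in mock, 3.87 to 6.82 with AZD8055, 3.65 to 8.25 with KU63794 and 0.915 to 4.28 with TORIN1. Of these, 1 of 5 was at 0 in all AZD8055 libraries and 3 of 5 in all TORIN1 libraries. The 4 seed storage markers summed to 34.7 to 60.4 CPM in mock and ranged from 0 to 185 CPM over the inhibitor libraries. The part of such tissue in the results was not tested.

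ATG3, ATG7, ATG4B and NBR1 were the members called higher in at least 1 comparison with mock, and no member was called lower. The share of all tested genes called higher in at least 1 comparison is not given here. With AZD8055, 3 of 10 members were higher (ATG3, ATG7 and NBR1), with KU63794 4 of 10 (the same genes and ATG4B), and with TORIN1 1 of 10 (ATG3). A call is an adjusted p below 0.05 in edgeR's quasi-likelihood test, adjusted by the Benjamini-Hochberg method over all 17933 genes of a comparison. Among all genes tested, 14.4% were called higher with AZD8055, 11.1% with KU63794 and 9.87% with TORIN1. The count with TORIN1 is thus near the background. The median log2 fold change over the 10 members was 0.09, 0.30 and 0.23 with AZD8055, KU63794 and TORIN1, beside 0.00, 0.01 and -0.01 over all tested genes. In the other direction 0 members were called with any inhibitor by edgeR, DESeq2 or limma voom, beside 16.1%, 14.3% and 10.3% of all genes called lower by edgeR. With 10 members, 0 is near these shares and is no result about them. At an unadjusted edgeR p below 0.05, for which the share of all genes is not given, 0 members were lower. In whole shoots, a change in the number of cells of a type and a change in RNA per cell cannot be told apart.

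**Figure D1:**
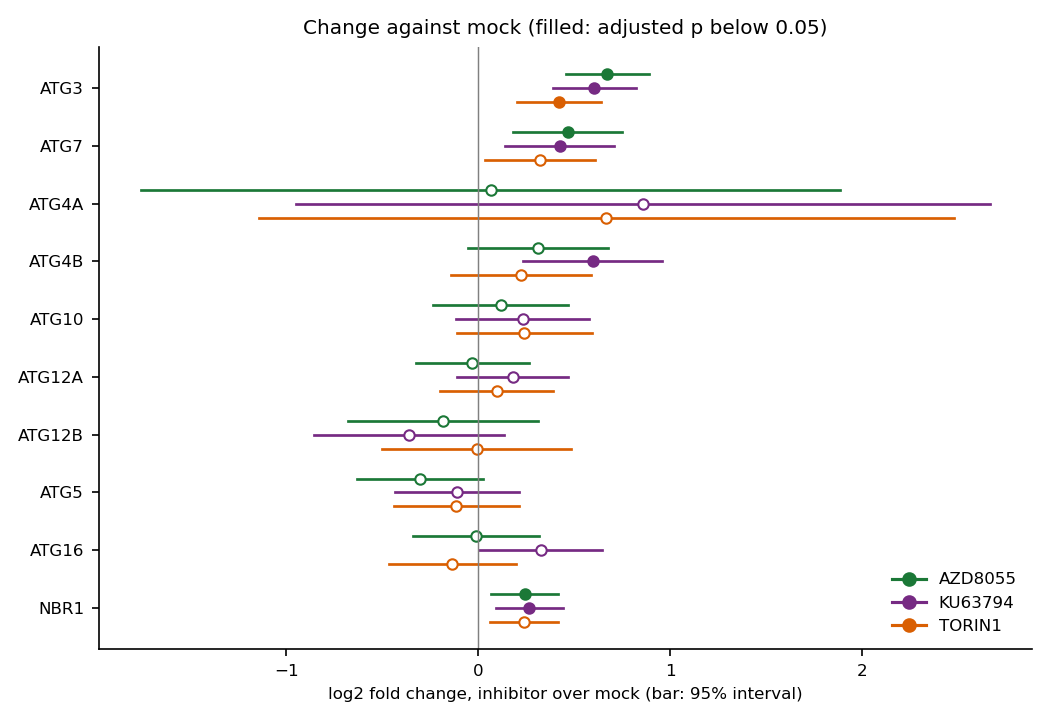
The x axis is the log2 fold change of each inhibitor over mock from edgeR, each row is a gene, bars are 95% intervals and filled points have an adjusted p below 0.05. ATG3 has filled points for all 3 inhibitors, at 0.67, 0.60 and 0.42, while the ATG4A bars are the longest, reaching from -1.76 to 2.66.

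ATG3, the enzyme that makes the final transfer of ATG8 to lipid, rose with all 3 inhibitors. Its levels in replicates 1, 2 and 3 were 63.5, 65.5 and 66.9 CPM in mock, 109, 98.3 and 104 CPM with AZD8055, 92.5, 114 and 90.7 CPM with KU63794 and 89.5, 78.5 and 93.7 CPM with TORIN1. All 9 inhibitor libraries lay above the highest mock library, and the mock libraries lay close together. The log2 fold change was 0.67 with AZD8055 (SE 0.10; edgeR adjusted p = 0.000185), 0.60 with KU63794 (SE 0.10; 0.000522) and 0.42 with TORIN1 (SE 0.10; 0.00948), or 1.59-fold, 1.52-fold and 1.34-fold. ATG3 was the only member called with all 3 inhibitors, as were 1111 of all tested genes (6.2%) in the higher direction. It kept its call in every fit that left out 1 library, with TORIN1 reaching an adjusted p of 0.0499 without TORIN1 replicate 3.

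ATG3 lies on chromosome 5 at 24733785 to 24736876 on the minus strand (TAIR10.1), in 9 exons. The gene upstream of it on the same strand, AT5G61510, shares 6 exon bases with it and covers all 250 bases before its start. AT5G61510 rose as well, with log2 fold changes of 0.76, 0.48 and 0.67 with AZD8055, KU63794 and TORIN1 (SE 0.12 each; edgeR adjusted p = 0.00022, 0.00714 and 0.00132). ATG3 had 2.15, 2.21 and 1.93 times the counts of AT5G61510 in mock and 1.67 to 2.40 times over the inhibitor libraries. Whether reads of one were counted for the other was not tested.

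ATG7, the E1-type enzyme that both conjugation routes share, rose with AZD8055 and KU63794. In replicates 1, 2 and 3 it stood at 16.1, 17.0 and 12.8 CPM in mock, 23.0, 19.2 and 21.5 CPM with AZD8055, 18.1, 23.2 and 20.6 CPM with KU63794 and 20.9, 18.9 and 17.9 CPM with TORIN1. Every inhibitor library was above every mock library, and mock replicate 3 was the lowest of the 12. The log2 fold change was 0.46 with AZD8055 (SE 0.13; edgeR adjusted p = 0.0163), 0.42 with KU63794 (SE 0.13; 0.0292) and 0.32 with TORIN1 (SE 0.13; 0.11), which did not pass. Without mock replicate 3 these became 0.36 with AZD8055 (edgeR adjusted p = 0.0761) and 0.32 with KU63794 (0.127). The AZD8055 call was also lost without AZD8055 replicate 1 (0.0534), and the KU63794 call without mock replicate 1 (0.0573), KU63794 replicate 2 (0.124) or KU63794 replicate 3 (0.0665).

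**Figure D2:**
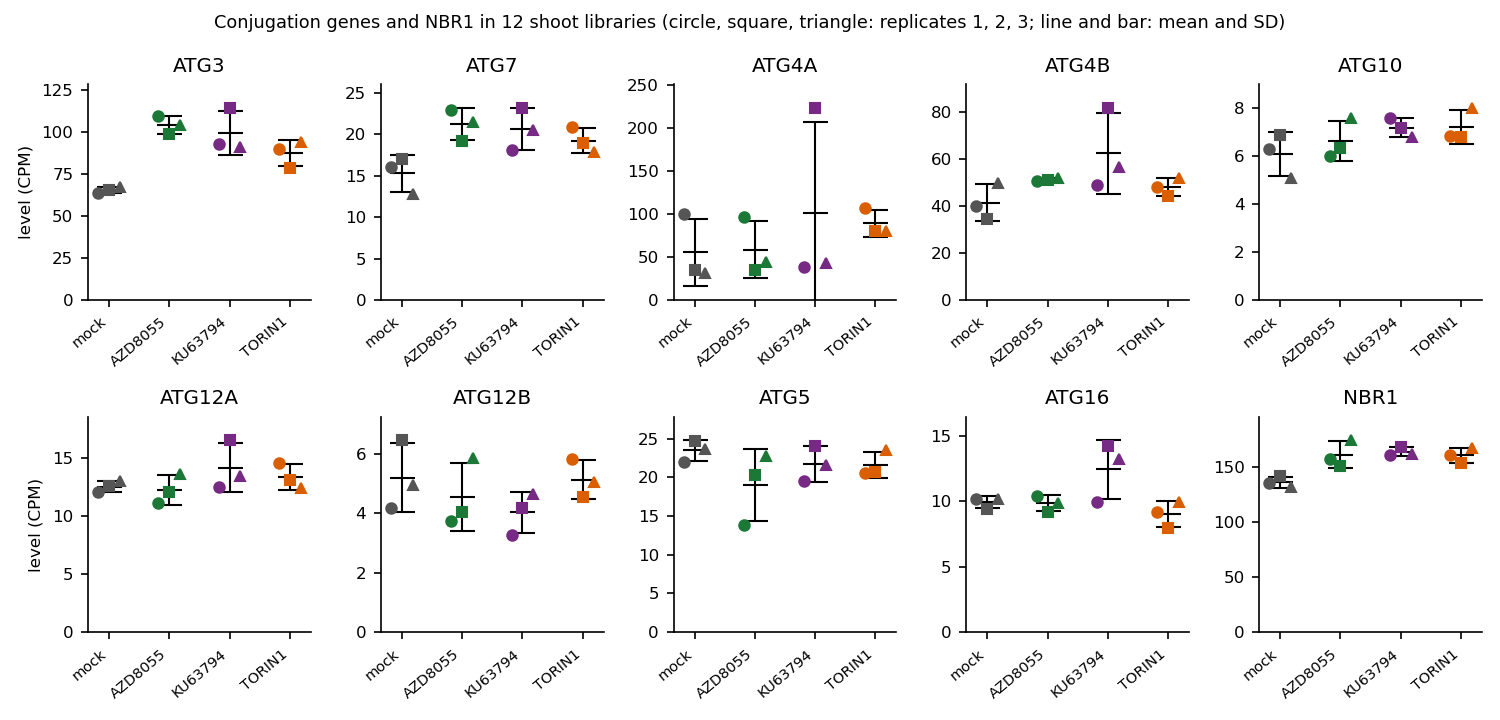
Each panel is a gene, the y axis is its level in CPM from 0, points are libraries (circle, square and triangle for replicates 1, 2 and 3), and the line and bar are the mean and SD of 3 libraries. The lower end of the ATG4A bar with KU63794 lies under 0 and is not drawn; all 9 inhibitor libraries are above all 3 mock libraries for ATG3, ATG7 and NBR1.

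ATG4A and ATG4B encode the proteases that trim ATG8 and can also release it from lipid. Their coding sequences, of 1404 and 1434 bases, are identical at 81.3% of aligned positions, with a longest identical run of 38 bases in their transcripts. Reads that lie within such a run can fit both genes, while longer reads span a differing base. How reads were divided between ATG4A and ATG4B was not tested. The stretch around that run is shown 5′ to 3′ on the coding strand because it is where reads of the pair are hardest to separate. Capitals mark the 5 bases that differ, at coding positions 1043 to 1120 of ATG4A and 1055 to 1132 of ATG4B (TAIR10.1, both genes on the minus strand):
ATG4A: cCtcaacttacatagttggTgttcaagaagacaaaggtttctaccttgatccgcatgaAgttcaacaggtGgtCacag
ATG4B: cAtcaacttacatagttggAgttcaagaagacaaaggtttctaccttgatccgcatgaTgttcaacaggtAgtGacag

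ATG4B rose with KU63794. Its levels in replicates 1, 2 and 3 were 39.98, 34.4 and 49.8 CPM in mock, 50.5, 50.9 and 51.9 CPM with AZD8055, 48.7, 81.8 and 56.4 CPM with KU63794 and 48.1, 44.2 and 51.9 CPM with TORIN1. KU63794 replicate 2 was far above the others, and KU63794 replicate 1 was below mock replicate 3, so those groups overlapped. The log2 fold change was 0.59 with KU63794 (SE 0.17; edgeR adjusted p = 0.019), 0.31 with AZD8055 (SE 0.17; 0.194) and 0.22 with TORIN1 (SE 0.17; 0.406). The KU63794 call was lost without KU63794 replicate 2 (0.35; edgeR adjusted p = 0.0824), mock replicate 1 (0.57; 0.0671) or mock replicate 2 (0.48; 0.0914), and in a fit of only the mock and KU63794 libraries (0.60; 0.0999). ATG4B shares 160 exon bases at its end with AT3G59940 (KMD4, a Kelch-repeat F-box gene) on the opposite strand, which was at 6.72 to 14.9 CPM in 11 libraries and at 23.5 CPM in KU63794 replicate 2. Whether the counting used strand is not given in the sources used here, so reads in this overlap could belong to either gene.

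ATG4A was the most scattered member, and libraries of the same group differed widely in mock, with AZD8055 and with KU63794. Its levels in replicates 1, 2 and 3 were 99.7, 34.7 and 30.9 CPM in mock, 96.3, 34.98 and 43.8 CPM with AZD8055, 38.0, 223 and 42.4 CPM with KU63794 and 107, 79.5 and 80.02 CPM with TORIN1. Replicate 1 was the high library in mock and with AZD8055, replicate 2 with KU63794, and all 3 TORIN1 libraries stood above the low ones of the other groups. The log2 fold changes of 0.06, 0.86 and 0.67 with AZD8055, KU63794 and TORIN1 had SEs of 0.79 each and did not pass (edgeR adjusted p = 0.964, 0.49 and 0.621). The 95% intervals ran from -1.76 to 1.88, from -0.95 to 2.66 and from -1.15 to 2.48, so each includes no change, a rise of several fold and a fall to about 0.5 of mock.

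The SD of ATG4A within groups was 0.94 on the log2 CPM scale, against a median of 0.21 over all tested genes. At its mean level of 75.9 CPM or above there were 2565 genes, and 0 of them had a larger SD within groups. Over all tested genes 96.8% were less variable. NBR1 was at the other end, with an SD of 0.07, and 2.11% of genes were less variable than it.

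The annotation places ATG4A on chromosome 2 at 18253497 to 18258293, minus strand (TAIR10.1), in 10 exons. The whole of AT2G44130 (KMD3, another Kelch-repeat F-box gene) lies within the last exon of ATG4A on the opposite strand, sharing 1445 bases. AT2G44130 varied by 2.11-fold, from 4.76 to 10.1 CPM, while ATG4A varied by 7.23-fold. Both were highest in KU63794 replicate 2, but the ATG4A counts exceeded those of AT2G44130 by 4.16 to 22.2 times. The next gene on one side, AT2G44150, varied by 1.37-fold (26.8 to 36.7 CPM). On the other side AT2G44120 ranged from 38.1 to 161 CPM and was highest in the mock libraries. The part of these neighbours in the ATG4A counts was not tested.

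**Figure D3:**
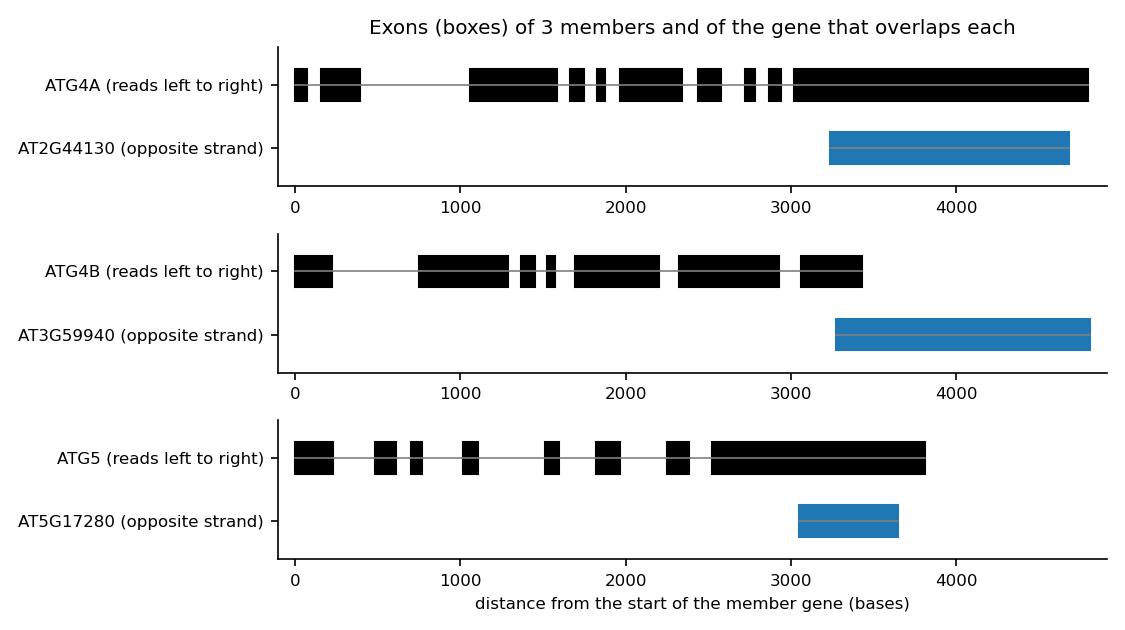
Boxes are exons of ATG4A, ATG4B and ATG5 (black) and of the opposite-strand gene that overlaps each (blue), drawn to scale in bases from the start of the member. The overlapping gene lies inside the last exon for ATG4A (1445 bases) and ATG5 (597 bases) and covers the end of ATG4B (160 bases).

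**Figure D4:**
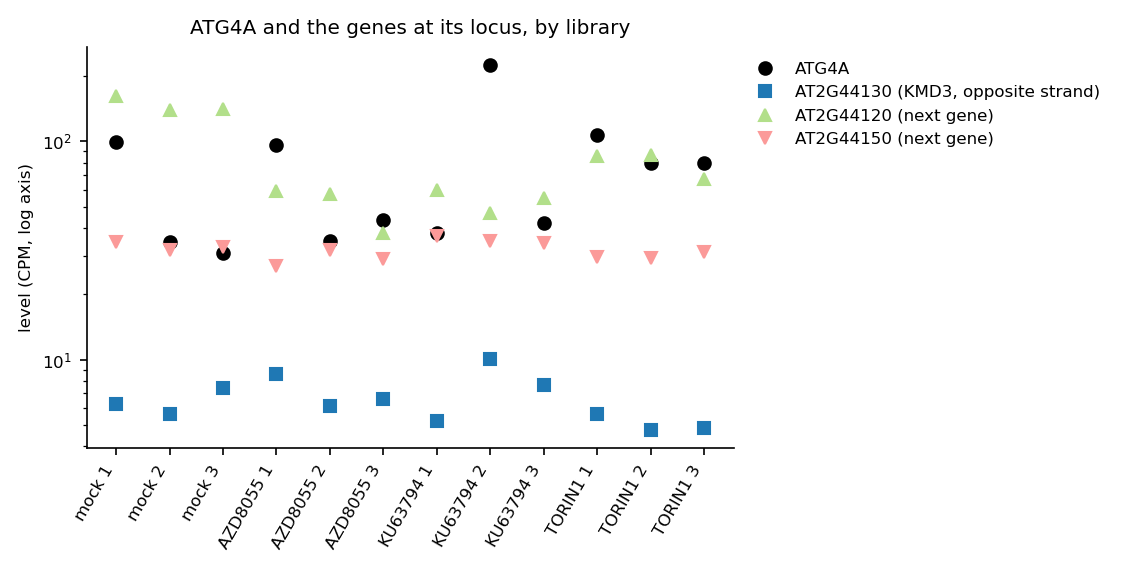
The y axis is the level in CPM on a log axis and the x axis the 12 libraries, with 1 point per gene for ATG4A, the gene inside its last exon (AT2G44130) and the next gene on either side. ATG4A spans 30.9 to 223 CPM, while AT2G44130 stays between 4.76 and 10.1 CPM and AT2G44150 between 26.8 and 36.7 CPM.

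The balance between the ATG4 paralogs was compared as the log2 ratio of their counts, which needs no scaling. The ratio of ATG4A to ATG4B was 2.49, 1.01 and 0.62 in mock replicates 1, 2 and 3, from 0.687 to 1.91 with AZD8055, from 0.751 to 2.73 with KU63794 and from 1.54 to 2.22 with TORIN1. Each of the first 3 groups held ratios above and below 1, while the 3 TORIN1 ratios were all above it. The 9 inhibitor libraries differed from mock by 0.17 on the log2 scale (exact two-sided permutation test, p = 0.818; adjusted over 8 tests, 0.935), where the smallest possible p was 0.00455. Without mock replicate 3 the difference was -0.28 and without mock replicate 1 it was 0.72, so its direction rests on single mock libraries.

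The ATG12 route, whose product also acts in the lipid step of ATG8, holds 5 members (ATG12A, ATG12B, ATG10, ATG5 and ATG16). They gave 0 calls with each inhibitor by edgeR, DESeq2 and limma voom. The 1 unadjusted edgeR p below 0.05, for which the share of all genes is not given, was that of ATG16 with KU63794 (0.0473). Of the 4 genes that act on ATG8 directly (ATG3, ATG7, ATG4A and ATG4B), 2, 3 and 1 were called with AZD8055, KU63794 and TORIN1. With 14.4%, 11.1% and 9.87% of all genes called higher, 0 of 5 is near the background and is no result about this route. The difference between these groups of genes was not tested, and ATG7 serves both routes.

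ATG5, the acceptor of ATG12, had the lowest log2 fold change of the 10 with AZD8055. In replicates 1, 2 and 3 it stood at 22.0, 24.7 and 23.7 CPM in mock, 13.9, 20.4 and 22.8 CPM with AZD8055, 19.5, 24.1 and 21.6 CPM with KU63794 and 20.6, 20.7 and 23.5 CPM with TORIN1. AZD8055 replicate 1 was the lowest library and the other 11 lay between 19.5 and 24.7 CPM, with overlap between groups. Against mock it differed by -0.30, -0.11 and -0.12 on the log2 scale, each with an SE of 0.15, and passed with none (edgeR adjusted p = 0.151, 0.652 and 0.651). Without AZD8055 replicate 3 the first became -0.46 and passed (edgeR adjusted p = 0.0451). AT5G17280, an opposite-strand gene inside the last exon of ATG5 that shares 597 bases with it, was at 0.747 to 1.56 CPM.

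ATG16, the partner of the conjugate, was at 10.2, 9.42 and 10.2 CPM in mock replicates 1, 2 and 3, at 10.4, 9.19 and 9.89 CPM with AZD8055, at 9.93, 14.2 and 13.2 CPM with KU63794 and at 9.14, 7.93 and 9.92 CPM with TORIN1. With KU63794 2 libraries were above all others and replicate 1 was within the mock range. The log2 fold change was -0.01 with AZD8055, 0.33 with KU63794 and -0.14 with TORIN1 (SE 0.15 each; edgeR adjusted p = 0.959, 0.133 and 0.596). The KU63794 value passed without KU63794 replicate 1 (0.46; edgeR adjusted p = 0.0342).

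ATG10, the E2-type enzyme for ATG12, stood at 6.30, 6.85 and 5.08 CPM in mock, 5.98 to 7.57 CPM with AZD8055, 6.80 to 7.58 CPM with KU63794 and 6.80 to 8.01 CPM with TORIN1. The ranges overlapped with mock for each inhibitor, and the log2 fold changes of 0.11, 0.23 and 0.24 (SE 0.17, 0.16 and 0.16) did not pass (edgeR adjusted p = 0.647, 0.34 and 0.345). Its opposite-strand neighbour AT3G07530, with 70 shared exon bases, fell with AZD8055 and was at 3.63 to 4.19 CPM in mock and 0.867 to 2.77 CPM over the inhibitor libraries (log2 fold changes of -1.05, -0.86 and -0.87; edgeR adjusted p = 0.0301, and 0.0738 and 0.086, which did not pass).

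ATG12A and ATG12B encode near-identical forms of ATG12. Their coding sequences match at 87.0% of aligned positions, with a longest shared run of 26 bases. Longer reads span at least 1 differing base, and how reads were divided between the 2 genes was not tested. The ends of the coding sequences, stop codons included, are shown because that run lies there. Capitals mark the 2 bases that differ, in coding positions 242 to 291 of ATG12A (plus strand of chromosome 1) and 236 to 285 of ATG12B (minus strand of chromosome 3), 5′ to 3′, from TAIR10.1:
ATG12A: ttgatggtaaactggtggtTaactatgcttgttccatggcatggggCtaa
ATG12B: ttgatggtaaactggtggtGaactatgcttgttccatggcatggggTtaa

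ATG12A had the higher level per kilobase of exon in every library. In CPM it stood at 12.05, 12.6 and 13.04 CPM in mock, 11.1 to 13.6 CPM with AZD8055, 12.5 to 16.6 CPM with KU63794 and 12.4 to 14.6 CPM with TORIN1, with log2 fold changes of -0.03, 0.18 and 0.09 (edgeR adjusted p = 0.891, 0.374 and 0.687). ATG12B stood at 4.18, 6.47 and 4.95 CPM in mock, 3.73 to 5.85 CPM with AZD8055, 3.28 to 4.65 CPM with KU63794 and 4.53 to 5.83 CPM with TORIN1, with -0.18, -0.36 and -0.01 (0.592, 0.286 and 0.984). Neither passed, and the groups overlapped. The count of ATG12A over that of ATG12B was 2.89, 1.94 and 2.63 in mock and 3.81, 3.98 and 2.89 with KU63794, so every KU63794 ratio was above the mock ones by a margin that was small at its narrowest. That difference, 0.52 on the log2 scale, had an exact two-sided permutation p of 0.1, the smallest that 3 against 3 libraries allow (0.78 adjusted over 8 tests). Over all 9 inhibitor libraries it was 0.26 (exact permutation p = 0.195).

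NBR1, the cargo receptor, showed a small rise of nearly the same size with each inhibitor. Its levels in replicates 1, 2 and 3 were 136, 142 and 132 CPM in mock, 157, 151 and 175 CPM with AZD8055, 161, 169 and 162 CPM with KU63794 and 161, 154 and 167 CPM with TORIN1. All 9 inhibitor libraries were above the 3 mock libraries. The log2 fold change was 0.24 with AZD8055 (SE 0.08; edgeR adjusted p = 0.0393), 0.27 with KU63794 (SE 0.08; 0.0279) and 0.24 with TORIN1 (SE 0.08; 0.0565), so the TORIN1 value did not pass although it is as large as that of AZD8055. These calls sat close to the threshold. Of 12 fits that each left out 1 library, the AZD8055 call was lost in 7 (mock replicates 1, 2 and 3, AZD8055 3, KU63794 1 and 3 and TORIN1 2; edgeR adjusted p from 0.053 to 0.143), the KU63794 call in 6 (each mock and each KU63794 library; 0.0503 to 0.102), and TORIN1 passed in 2 (without AZD8055 replicate 1 or 3; 0.0434 and 0.0367). The AZD8055 call was also lost with no low-count filter (0.0677) and with only the 2 groups in the fit (0.0751), while TORIN1 passed with DESeq2 (0.0246) and with only the 2 groups (0.0257).

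ATG3, ATG7 and NBR1 were the 3 members with all 9 inhibitor libraries above all 3 mock libraries, a pattern that 1973 of all tested genes (11%) showed. Within single comparisons, 4 members with AZD8055, 3 with KU63794 and 3 with TORIN1 lay wholly above mock, beside 20.7%, 20.7% and 20.5% of all genes, and 0 members lay wholly below mock, beside 22.8%, 23.3% and 21.6%.

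The windows of 250 bases before the annotated gene starts (TAIR10.1) were searched on both strands for TGACG (bound by TGA-type bZIP factors), CACGTG (the G-box) and TTGAC (the core of the W-box of WRKY factors). TGACG was in 2 of 10 windows (18.6% of the windows of 27443 protein-coding genes), CACGTG in 1 (6.49%) and TTGAC in 6 (44.9%). TGACG and TTGAC share 4 bases, and they overlap in ATG12B. The windows of ATG3, ATG7, ATG10 and ATG12A held none of these letters, and those of ATG3 and ATG10 lie wholly inside a neighbouring gene. The NBR1 window, on the plus strand of chromosome 4 at chr4:12740782-12741031, holds no other gene and has 1 match, TTGAC read on the opposite strand. It is shown 5′ to 3′, with the match in capitals, as the window of a called member that can be read apart from its neighbours:
NBR1: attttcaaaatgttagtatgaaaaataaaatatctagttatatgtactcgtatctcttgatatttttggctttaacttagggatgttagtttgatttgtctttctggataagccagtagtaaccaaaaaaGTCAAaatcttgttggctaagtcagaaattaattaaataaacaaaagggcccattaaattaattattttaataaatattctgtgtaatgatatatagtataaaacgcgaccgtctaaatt

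Between genes, levels were compared as CPM per kilobase of merged exons. The exons are those of TAIR10.1 and may differ from those used for counting. In mock, NBR1 (48.1 to 51.7 CPM per kilobase) and ATG3 (40.6 to 42.8) were well above the rest. ATG4B (14.4 to 20.8), ATG4A (9.10 to 29.4) and ATG12A (14.6 to 15.8) followed and overlapped in turn, and ATG5 (10.2 to 11.4) lay within the wide ATG4A range. The lowest were ATG12B (5.29 to 8.20), ATG7 (5.36 to 7.14), ATG10 (4.13 to 5.57) and ATG16 (4.57 to 4.95), each of which overlapped with the next in this order. The E1-type enzyme ATG7 was therefore among the lowest per length and the E2-type enzyme ATG3 among the highest.

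Between the inhibitors, whose doses differed, 0 of 10 members were called in each of the 3 comparisons by edgeR, DESeq2 or limma voom, beside 0.00558% of all genes for AZD8055 against KU63794, 1.8% for AZD8055 against TORIN1 and 2.82% for KU63794 against TORIN1 called by edgeR in either direction. At an unadjusted edgeR p below 0.05, for which the share of all genes is not given, there were 1, 1 and 2 members. These were ATG16 for AZD8055 against KU63794 (log2 difference -0.34), ATG3 for AZD8055 against TORIN1 (0.25; 95% interval 0.04 to 0.47; edgeR adjusted p = 0.234), and ATG4B (0.37) and ATG16 (0.46; 95% interval 0.14 to 0.78; edgeR adjusted p = 0.106) for KU63794 against TORIN1. For NBR1 the intervals ran from -0.20 to 0.15, from -0.17 to 0.18 and from -0.15 to 0.20 in that order of comparisons, the narrowest of the 10. For ATG4A they reached -2.60 and 1.97, so that neither likeness nor difference can be read from it.

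KU63794 replicate 2 was the highest of the 12 libraries for 6 of 10 members (ATG3, ATG4A, ATG4B, ATG7, ATG12A and ATG16). The share of all genes highest in this library is not given here, so the count is no result about the members. Over whole libraries, the chi-square per degree of freedom was 13.9 between KU63794 replicates 1 and 2. It was 13.2 between 2 and 3 and 4.76 between 1 and 3, where larger values mean less alike. AZD8055 pairs ran from 8.82 to 18.9. Without KU63794 replicate 2 the KU63794 count of called members was 1 instead of 4, and the part of this library in the KU63794 result beyond that was not tested. Without mock replicate 1 that count was 1 as well, and without mock replicate 2, mock replicate 3 or KU63794 replicate 3 it was 2. The AZD8055 count fell to 1 without mock replicate 3.

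The rest of the pathway was read from a list of 40 autophagy genes, chosen with earlier results of these data known. ATG18E and TSPO had too few counts, and the other 38 were tested. Of these, 23 rose and 1 fell with AZD8055, 21 rose and 0 fell with KU63794, and 13 rose and 1 fell with TORIN1, with medians of 0.44, 0.45 and 0.26, beside 14.4%, 11.1% and 9.87% of all tested genes called higher. For the ATG8 substrates of the conjugation enzymes, 6, 5 and 6 of 9 genes rose. The ATG8 genes form a family of similar sequences, so their separate counts are less certain. Subunits of the phosphatidylinositol 3-kinase complex, which marks the forming membrane, rose in 5, 5 and 3 of 6, and subunits of the ATG1-ATG13 kinase complex, which starts autophagy and is known to be held back by TOR, in 4, 4 and 2 of 8. ATG9, ATG2 and the ATG18 proteins, which take part in membrane supply, rose in 5, 5 and 2 of 9 tested, and other cargo receptors in 3, 2 and 0 of 6 tested. The TORIN1 counts for these last 3 lists, of 2 of 8, 2 of 9 and 0 of 6, are near the share of all genes. In the kinase complex list 1 of 8 was called lower with TORIN1. The TORIN1 count was 7 without mock replicate 1 and 8 without mock replicate 3, TORIN1 replicate 1 or TORIN1 replicate 3.

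The strongest of these by their smallest change over the inhibitors were ATG8H, ATG101, ATG8I, ATG18D, ATG8G and ATG8A, 6 of the 12 that rose with all 3. Mock libraries held ATG8A at 51.6 ± 4.46 CPM (mean ± SD, n = 3), AZD8055 libraries at 84.7 ± 5.79, KU63794 libraries at 88.3 ± 9.998 and TORIN1 libraries at 75.2 ± 11.2, with log2 fold changes of 0.72, 0.77 and 0.54 (edgeR adjusted p = 0.000346, 0.000224 and 0.00485). ATG8G rose by 0.55, 0.55 and 0.59 and ATG18D, of the ATG18 lipid-binding family, by 0.58, 0.65 and 0.62, but ATG8G lost its calls in 3, 4 and 4 and ATG18D in 6, 4 and 7 of the 12 fits without 1 library. For ATG8G these left out mock replicate 1 or 2 with each inhibitor, and AZD8055 replicate 3, KU63794 replicate 2 or 3, or TORIN1 replicate 2 or 3 in the comparison of that inhibitor. For ATG18D they left out mock replicate 1 or 3, or replicate 1 or 3 of the inhibitor compared, with each inhibitor, and also KU63794 replicate 1 or 3 with AZD8055 and TORIN1 and mock replicate 2 with TORIN1. The ATG18D call was also lost with DESeq2 (adjusted p = 0.0764 with AZD8055 and 0.0799 with TORIN1) and with no low-count filter (edgeR adjusted p = 0.0594 and 0.0543), and with AZD8055 in the fit of only the 2 groups (0.0668). ATG8H (0.76, 0.91 and 0.71), ATG8I (0.69, 0.75 and 0.61) and ATG101 (0.61, 0.85 and 0.61) kept theirs in all of these. The gene that fell was ATG1T, a short ATG1 relative named here after its values were seen. In mock it stood at 16.1 ± 2.08 CPM. It fell to 8.78 ± 1.79 CPM under AZD8055 (log2 fold change -0.87; edgeR adjusted p = 0.000776) and to 10.8 ± 1.204 CPM under TORIN1 (-0.58; 0.0176), while 13.2 ± 0.459 CPM under KU63794 did not pass (-0.28; 0.2). Without mock replicate 3 or TORIN1 replicate 3 no gene of the list was called lower with TORIN1.

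**Figure D5:**
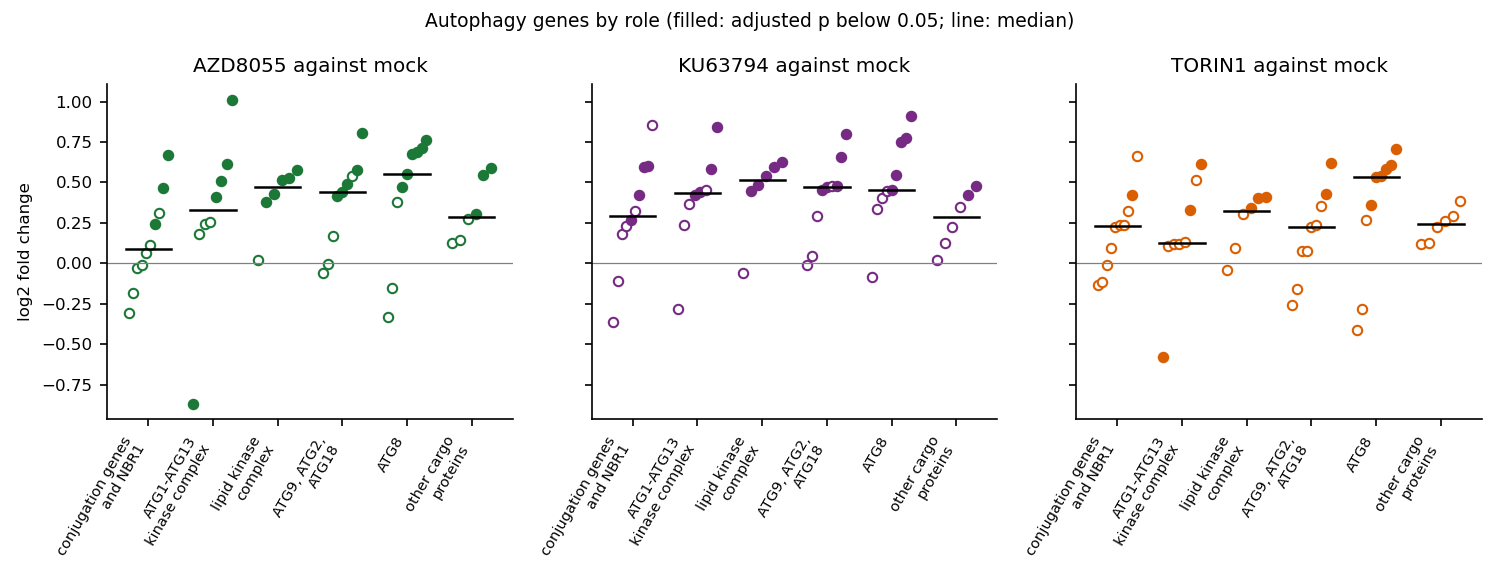
The y axis is the log2 fold change over mock from edgeR in 1 panel per inhibitor, points are genes grouped by role, filled points have an adjusted p below 0.05 and lines are medians. The median of the conjugation genes and NBR1 is 0.09, 0.30 and 0.23, beside 0.55, 0.45 and 0.53 for the ATG8 genes.

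Profiles were compared as the root mean square difference of log2 CPM over the 12 libraries after centring each gene, among 16887 genes with a mean of at least 1 CPM. The 5 nearest to NBR1 were PXN (a peroxisomal NAD carrier; 0.0416), SKD1 (an ATPase of multivesicular bodies; 0.045), OST1 (a kinase of abscisic acid signalling; 0.0473), AT5G18500 (0.048) and AT5G18190 (0.0489), against a median of 0.28 over all genes compared. Those nearest to ATG12A were AT4G25900, EXO70A1 (an exocyst subunit), QUA3, AT3G13340 and SRFR1, at 0.08 each. The nearest gene to ATG4A, AT5G01542, was 0.54 away. The measure counts the size of changes as well as their direction, so genes that vary little lie close together by it. It cannot show whether a gene with smaller changes followed the scatter of ATG4A. Within the group the closest pair was ATG10 and NBR1 (0.10), and ATG3 and ATG7 differed by 0.15.

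The authors' deposited tables list genes past their own threshold, which are 22.3%, 19.2% and 15.5% of the 23772 genes with a count. The authors' deposited table for AZD8055 lists ATG3 (log2 fold change 0.66), ATG7 (0.44) and NBR1 (0.25), with the sign turned to inhibitor over mock. The authors' deposited table for KU63794 lists ATG3 (0.60), ATG4B (0.56), ATG7 (0.41) and NBR1 (0.28). The authors' deposited table for TORIN1 lists ATG3 (0.40; adjusted p = 0.00233) and NBR1 (0.23; adjusted p = 0.0128), which edgeR did not call. ATG3, ATG7 and NBR1 are among the 4398 genes of the authors' deposited table of changes shared by the inhibitors, at averages of 0.55, 0.29 and 0.25. The ATG7 average in the authors' deposited table lies below both of its listed values and equals their mean with TORIN1, where ATG7 is not listed, taken as 0.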

How the data were processed

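Raw counts per gene for 12 libraries were deposited by the authors. StringTie 1.3.3, DESeq2 1.18.1 and the TAIR10 build are named per the submitters' processing notes. Those sources do not name an aligner, a strand setting or a rule for shared reads. The deposited tables of the authors' own comparisons hold log2 fold changes (mock over inhibitor), standard errors, a Wald score, a p-value and an adjusted p-value, with a base mean signal of normalized counts. Another 12 columns, of normalized counts, were not used.

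The test was edgeR 4.0.16 (R 4.3.3): 12 libraries in 1 fit, TMM scaling, default low-count filter, robust quasi-likelihood test, Benjamini-Hochberg adjustment per comparison. The SE is the absolute log2 fold change over the square root of F. DESeq2 1.42.0, limma voom 3.58.1, other scalings and filters, a replicate block and fits without 1 library were alternatives. It was checked on simulated data. Gene models and sequences are from RefSeq TAIR10.1, read with Python 3.11.15, and all 10 members matched by ID. Exon lengths and shared exon bases may differ from those of the models used for counting. No promoter or protein table was used here, so windows were read from the genome. Figures used matplotlib 3.10.9.

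The members and lists were chosen with earlier results of these data known. All members are named, with up to 6 other autophagy genes called with all 3 inhibitors, ranked by smallest change, and the 5 profiles nearest to NBR1 and ATG12A.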

Additional observations from a re-analysis of the deposited data

How the results depend on the processing

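Scalings (RLE, upper quartile), DESeq2, limma voom, no filter, a replicate block, fits of only the 2 groups and fits without 1 library were run for all members. Of the counts of calls, 267 stayed within 1.5 times of the reported value and 18 did not. The 267 include counts that were 0 and stayed 0, and falls from 3 to 2 members. The count of members higher with AZD8055 was 2 with no low-count filter and 2 with only the 2 groups compared, where 3 was reported. The count of members higher with TORIN1 was 2 with DESeq2 and 2 with only the 2 groups compared, where 1 was reported. In fits without 1 library, members higher ranged from 1 to 3 with AZD8055, 1 to 4 with KU63794 and 1 to 2 with TORIN1, and members lower with AZD8055 from 0 to 1. For the other autophagy genes, the number lower ranged from 1 to 2 with AZD8055 and from 0 to 1 with TORIN1, and the number higher from 17 to 23 with AZD8055, 15 to 24 with KU63794 and 7 to 14 with TORIN1. The log2 ratio of ATG4A to ATG4B, 0.17 higher with the inhibitors, ranged from -0.28 (without mock replicate 3, a reversal) to 0.72, and that of ATG12A to ATG12B from 0.09 to 0.38; the cause was not tested. The replicate block changed no member's call (members higher 3, 4 and 1) and gave 22, 21 and 12 other autophagy genes higher, with ATG18D lost with AZD8055 (edgeR adjusted p = 0.0502) and TORIN1 (0.0537). For the paralog ratios the replicate block gives 0.17 and 0.26 by construction, since each number occurs once in every group. For replicate numbers, 3 of 18 same-number pairs had a correlation of deviations above 0.1, and 5 of 12 libraries correlated best with their own number. Correlations ran from -0.27 to 0.23 for same-number pairs and from -0.30 to 0.23 for the others. No level for unpaired libraries was set, so this check cannot tell whether the numbers pair the libraries. No scaling moved the median of all genes by more than 0.04 (log2). Depth limits ATG12B most, with 38 to 68 counts per library.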

Other observations

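ATG4A levels fell into separate ranges, read off after the values were seen. Mock, AZD8055 and KU63794 each had libraries in both ranges, while every TORIN1 library was in the high range. The 6 high libraries were mock replicate 1 (99.7 CPM), AZD8055 replicate 1 (96.3 CPM), KU63794 replicate 2 (223 CPM) and TORIN1 replicates 1 to 3 (107, 79.5 and 80.02 CPM), and the other 6 lay between 30.9 and 43.8 CPM, with no library between 43.8 and 79.5 CPM. ATG4B, its paralog, ranged from 34.4 to 81.8 CPM over the same libraries.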
